A study of Mus musculus with 6 samples.

Results

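The 10 genes of the BCL2 family followed here, whose proteins decide whether a cell survives or dies by the mitochondrial route, were measured in newly made RNA of mouse embryonic stem cells. They were chosen by symbol: Mcl1, Bcl2, Bcl2l1, Bcl2l11, Bax, Bak1, Bbc3, Pmaip1, Bad and Bmf. All 10 have a row among the 25899 gene symbols of the count table. The cells are of the E14tg2a line (129SV background) and stably carry a cRAF-ErT2 cassette, a kinase fusion that 4-hydroxytamoxifen (4OHT) switches on and that in turn activates ERK. One group received 250 nM 4OHT for 2 h and the other was left untreated, with 3 libraries in each, 1 from each of the clones named a, b and c. Both groups carried the cassette, had been grown with serum, LIF and 2 µM CHIR99021 (a GSK3 inhibitor), and had been moved 24 h before treatment to a medium that kept serum and LIF and held PD173074 (250 nM), which blocks FGF receptors, in place of the GSK3 inhibitor. RNA made in the last 15 min was labelled with 5 mM ethynyl uridine, captured and sequenced (EU-seq). The promoter that drives the cassette is not given in the labels. Cells that lack the cassette but received 4OHT, and cells given solvent only, are not among the samples, so that effects of ERK, of 4OHT and of handling cannot be told apart.

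BCL2 family proteins meet at the outer membrane of the mitochondrion. The survival proteins, here MCL1, BCL2 and BCL-XL (from Bcl2l1), hold the others in check. The BH3-only proteins BIM (from Bcl2l11), PUMA (Bbc3), NOXA (Pmaip1), BAD and BMF bind the survival proteins, and some also engage BAX and BAK directly. BAX and BAK (from Bak1) are the effectors that form pores, release cytochrome c and start the caspases. In many cell types ERK signalling acts on this family after the protein is made, for example by marking BIM for destruction. Nascent RNA reports on another layer, the making of the transcripts.

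Libraries held 7295334 to 9431819 counts after 4OHT and 9745747 to 12168380 untreated. Egr1, an immediate early gene of the ERK pathway, stood at 3681 to 3985 CPM after 4OHT and at 53.6 to 86.0 CPM untreated, as a check that the treatment acted. CPM values here are scaled by TMM, which assumes that most genes do not change. That assumption may not hold here, as 57.1% of the genes tested had an edgeR adjusted p below 0.05. The TMM factors were 0.929 to 0.939 after 4OHT and 1.05 to 1.08 untreated. Scaling by library size alone lowers the log2 fold changes by a median of 0.20 (median shift -0.20). Of 10 embryonic stem cell markers, all tested, 3 rose (Dppa4, Zfp42 and Pou5f1) and 4 fell (Tdgf1, Sall4, Nanog and Esrrb). Their summed level was 2180 to 2600 CPM after 4OHT and 2860 to 2960 CPM untreated. By library size 2 rose and 6 fell, as Pou5f1 no longer passed (0.16, edgeR adjusted p = 0.0547). Sox2 (-0.24) and Dppa5a (-0.31) then passed as lower. Of 9 endoderm markers 4 were tested, of which 0 passed in edgeR (2 at an unadjusted p below 0.05, and 1 with clone as a block). By library size 1 of these endoderm markers passed as lower. The sum of the endoderm list was 10 to 12 CPM after 4OHT and 8.42 to 11.8 CPM untreated. Of 10 fibroblast markers 3 were tested, of which Twist1 and Col1a1 rose (log2 fold changes 5.21 and 3.45) and Pdgfrb fell (-0.91). The sum of the list was 20.7 to 24.8 CPM after 4OHT and 2.88 to 3.72 CPM untreated, of which Twist1 alone made 18.1 ± 2.02 CPM after 4OHT and 0.499 ± 0.321 CPM untreated (SD, n = 3 each). Of untested fibroblast markers, Lum and Postn were at 0 counts in all 6 libraries, as was S100a4, 93% of which lies under another gene. Thy1 had 7, 6 and 2 counts after 4OHT, against 9, 8 and 5 untreated. Col1a2, Col3a1 and Dcn had at most 3 counts in any library. Whether these shifts bear on the BCL2 family values was not tested.

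Of the 10 genes, 9 had enough counts to be tested, and all 9 passed: 3 rose and 6 fell after 4OHT (edgeR quasi-likelihood test, Benjamini-Hochberg adjusted p below 0.05). The change was widespread in these cells, as 57.1% of the 13869 genes tested passed, 28.5% higher and 28.6% lower, or 67.4% with clone as a block. The near-equal split depends on the scaling: by library size 29.7% of all calls were higher. The CPM of the 3 treated and the 3 untreated libraries did not overlap for any of the 9, which was so for 63.3% of all genes. The median log2 fold change of the 9 was -0.44, against -0.00054 over all genes tested. The survival genes divided, the BH3-only genes divided, and the one effector with counts fell. In such bulk libraries, fewer cells that make a transcript and less of it per cell cannot be told apart.

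**Figure D1:**
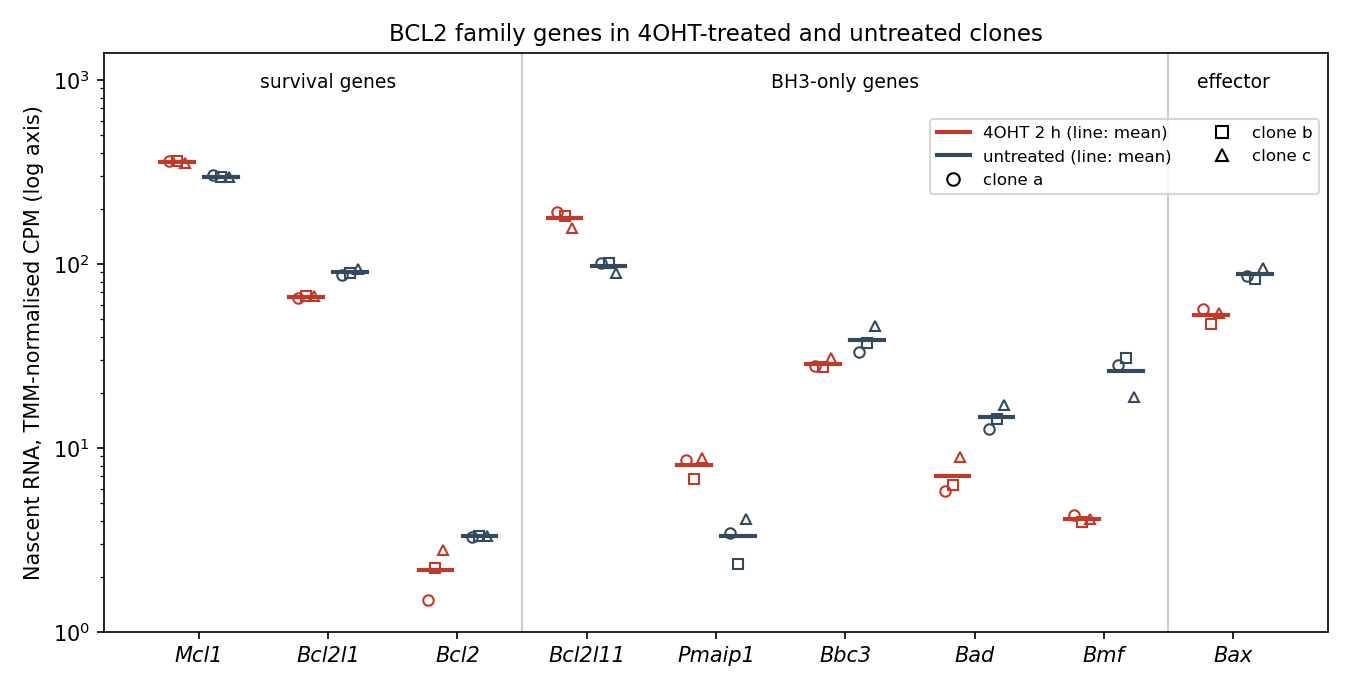
Nascent RNA of 9 BCL2 family genes (TMM-normalised CPM, log axis) in each library after 2 h of 4OHT (red) and untreated (dark blue). Symbols are clones and lines are group means. The 2 groups do not overlap for any of the 9 genes, and Bmf shows the widest gap, 3.96 to 4.34 CPM after 4OHT against 18.9 to 31.0 CPM untreated.

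The sequences before the starts of 3 of these genes are given to set genes that rose, Mcl1 and Bcl2l11, beside Bmf, which fell most. Pmaip1, which rose most, is not among the promoters used here. Each is the 250 bases upstream of a gene start, 5′ to 3′ on the gene's strand, from RefSeq (GRCm38.p6). Where RefSeq lists several starts (2 for Bcl2l11 and 3 for Bmf), the one nearest the 5′ end of the GENCODE gene is shown. Capitals mark matches on either strand to 7 short motifs: ETS (CCGGAAG), AP-1 (TGANTCA), CRE (TGACGTCA), FOXO (TGTTTAC), EGR (GCGGGGGCG), E-box (CACGTG) and CCAAT.
Mcl1 (chr3:95658471-95658720, plus strand): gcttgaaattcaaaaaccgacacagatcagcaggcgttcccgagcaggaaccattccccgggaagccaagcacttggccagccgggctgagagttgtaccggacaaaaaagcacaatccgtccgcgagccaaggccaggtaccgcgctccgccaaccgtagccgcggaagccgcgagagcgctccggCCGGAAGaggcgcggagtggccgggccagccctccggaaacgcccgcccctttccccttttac
Bcl2l11 (chr2:128125788-128126037, plus strand): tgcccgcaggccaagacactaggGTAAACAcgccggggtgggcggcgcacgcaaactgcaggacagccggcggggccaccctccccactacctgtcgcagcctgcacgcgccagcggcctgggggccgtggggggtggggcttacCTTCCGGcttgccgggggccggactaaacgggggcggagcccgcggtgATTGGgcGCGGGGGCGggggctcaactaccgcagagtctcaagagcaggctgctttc
Bmf (chr2:118549687-118549936, minus strand): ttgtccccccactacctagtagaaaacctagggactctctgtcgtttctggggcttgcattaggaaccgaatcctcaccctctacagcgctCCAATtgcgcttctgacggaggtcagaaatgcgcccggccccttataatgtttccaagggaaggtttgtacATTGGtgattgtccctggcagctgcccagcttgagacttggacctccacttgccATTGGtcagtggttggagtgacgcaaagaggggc

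The Mcl1 stretch holds 1 ETS match, at positions -63 to -57 from the start, and no other. Positions count from the RefSeq start (95658721), which lies before the GENCODE start of Mcl1 (95658788). The Bcl2l11 stretch holds an ETS match (-105 to -99), a FOXO match (-227 to -221), an EGR match (-50 to -42) and a CCAAT match (-57 to -53). The Bmf stretch holds 3 CCAAT matches and none of the other letters. Among 9 of the genes with a RefSeq promoter, the ETS letters were in 2 (Mcl1 and Bcl2l11), the EGR letters in 2 (Bcl2l11 and Bbc3), the CCAAT letters in 2, the FOXO and E-box letters in 1 each (Bcl2l11 and Bax), and the AP-1 and CRE letters in 0. Of all 32851 promoter stretches, 6.91% hold the ETS letters, 2.57% EGR, 33.8% CCAAT, 3.17% FOXO, 6.02% E-box, 6.75% AP-1 and 1.55% CRE. The 3 stretches also differ in composition, with 64.4% G and C and 26 CpG in Mcl1, 72.0% and 24 in Bcl2l11, and 54.0% and 8 in Bmf. The Bbc3 stretch has 76.4% and 27, and the median over all promoters is 52.4% and 6. The shares over all promoters are thus not matched for composition. A match describes letters in the reference and not a bound site. For Bbc3 the RefSeq start used (16309583) lies inside the GENCODE span (16308393 to 16318205).

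Among the survival genes, Mcl1 rose while Bcl2l1 and Bcl2 fell. Mcl1 (chromosome 3, 95658788 to 95663176, GRCm38) encodes a short-lived protein that restrains BIM, NOXA and BAK. It had 360.3, 362 and 353 CPM after 4OHT in clones a, b and c, against 304, 295 and 296 CPM untreated. The treated libraries all lay above the untreated ones, but by little: the log2 fold change was 0.26 ± 0.06 (SE), a 1.20-fold rise (edgeR adjusted p = 0.00274). Scaled by library size alone, Mcl1 had a log2 fold change of 0.065 and did not pass (adjusted p = 0.381), nor did it pass without the pair of clone b libraries (0.25, adjusted p = 0.0716).

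Bcl2l1 (chromosome 2, 152780668 to 152831728) encodes BCL-XL, whose other splice form, BCL-XS, promotes death; gene counts do not separate the forms. It had 65.1, 67.1 and 66.6 CPM after 4OHT, against 87.4, 88.8 and 93.8 CPM untreated. All treated clones fell below all untreated ones, and the clones moved almost alike, with log2 fold changes of -0.42, -0.40 and -0.49 in clones a, b and c. The fitted value was -0.44 ± 0.06 (edgeR adjusted p = 0.000205). Bcl2 itself (chromosome 1, 106538178 to 106714274), the founding member, was hardly transcribed. Its counts were 13, 18 and 19 after 4OHT, against 41, 44 and 34 untreated. In CPM that is 1.48, 2.23 and 2.78 after 4OHT, against 3.29, 3.34 and 3.33 untreated. The fall of 0.64 ± 0.25 on the log2 scale only just passed (edgeR adjusted p = 0.0485), and the call was lost under 9 of 16 alternatives, among them DESeq2 (adjusted p = 0.14). Left out singly, each library except the treated one of clone c ended it, and without the treated one of clone a the value was -0.41 (adjusted p = 0.206). An antisense gene that the count table does not list covers 18.8% of the Bcl2 span.

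Of the 5 BH3-only genes, Pmaip1 and Bcl2l11 rose while Bmf, Bad and Bbc3 fell. Pmaip1 (chromosome 18, 66458533 to 66465565) encodes NOXA, which mainly binds MCL1. It had 75, 55 and 60 counts after 4OHT, against 43, 31 and 42 untreated, in libraries that were the smaller ones after 4OHT. These were 8.57, 6.80 and 8.77 CPM after 4OHT, against 3.45, 2.35 and 4.12 CPM untreated. The rise was 2.46-fold, a log2 fold change of 1.30 ± 0.22 (edgeR adjusted p = 0.000608), and 95.4% of all tested genes had a lower value. Clone b had the lowest level in both groups and, with 1.46, the largest log2 fold change.

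Bcl2l11 (chromosome 2, 128126038 to 128162547) encodes BIM, a BH3-only protein that binds every survival protein of the family. It had 192, 182 and 157 CPM after 4OHT, against 101, 101 and 89.4 CPM untreated. Every treated library stood far above every untreated one, and clone c was lowest in both groups. The log2 fold change was 0.87 ± 0.09, a 1.82-fold rise (edgeR adjusted p = 1.69e-05), and it passed under all 16 alternatives, from 0.67 by library size to 0.95.

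Bmf (chromosome 2, 118528757 to 118549687), whose product is tethered to the cytoskeleton through a dynein light chain, fell most. It had 38, 32 and 28 counts after 4OHT, against 352, 408 and 193 untreated. In CPM these were 4.34, 3.96 and 4.09 after 4OHT, against 28.2, 31.0 and 18.9 untreated. The treated clones came to nearly the same low level although untreated clone c started lower than the other two. The log2 fold change was -2.66 ± 0.21, and untreated cells had 6.31 times the treated level (edgeR adjusted p = 3.82e-06). Ordered by log2 fold change from the lowest, Bmf stood at rank 70 of the 13869 genes tested.

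Bad (chromosome 19, 6941861 to 6951899), whose protein is inactivated by survival kinases and then bound by 14-3-3 proteins, had 5.83, 6.31 and 8.91 CPM after 4OHT, against 12.7, 14.3 and 17.1 CPM untreated. It fell in every clone, with clone c highest in both groups. Its log2 fold change was -1.08 ± 0.18 (edgeR adjusted p = 0.000606), and Gpr137 on the other strand shares 6.18% of its span. Bbc3 (chromosome 7, 16308393 to 16318205), which encodes PUMA, the strong p53-induced killer, had 27.9, 27.5 and 30.7 CPM after 4OHT, against 33.0, 37.1 and 46.3 CPM untreated. The groups were separate but close, and the untreated clones were spread more widely than the treated ones. The log2 fold change was -0.43 ± 0.13 (edgeR adjusted p = 0.0130), and the call was lost without the treated library of clone b (adjusted p = 0.0523) or without both clone b libraries (0.0916).

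Bax (chromosome 7, 45461697 to 45466898), the pore-forming effector, had 57.0, 47.1 and 53.9 CPM after 4OHT, against 85.4, 83.3 and 95.1 CPM untreated. It fell in all 3 clones, by 0.58 on the log2 scale in clone a and more in clones b and c (log2 fold changes -0.82 in both). The fitted log2 fold change was -0.74 ± 0.09 (edgeR adjusted p = 5.59e-05), and Gm45808, on the same strand, shares 17.6% of the span. Bax, Bbc3 and Pmaip1 are textbook p53 targets, and they did not move together. Trp53 itself, the gene for p53, averaged 197 ± 16.9 CPM after 4OHT and 244 ± 1.83 CPM untreated (SD, n = 3 each), a log2 fold change of -0.30 ± 0.07 (edgeR adjusted p = 0.00454).

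**Figure D2:**
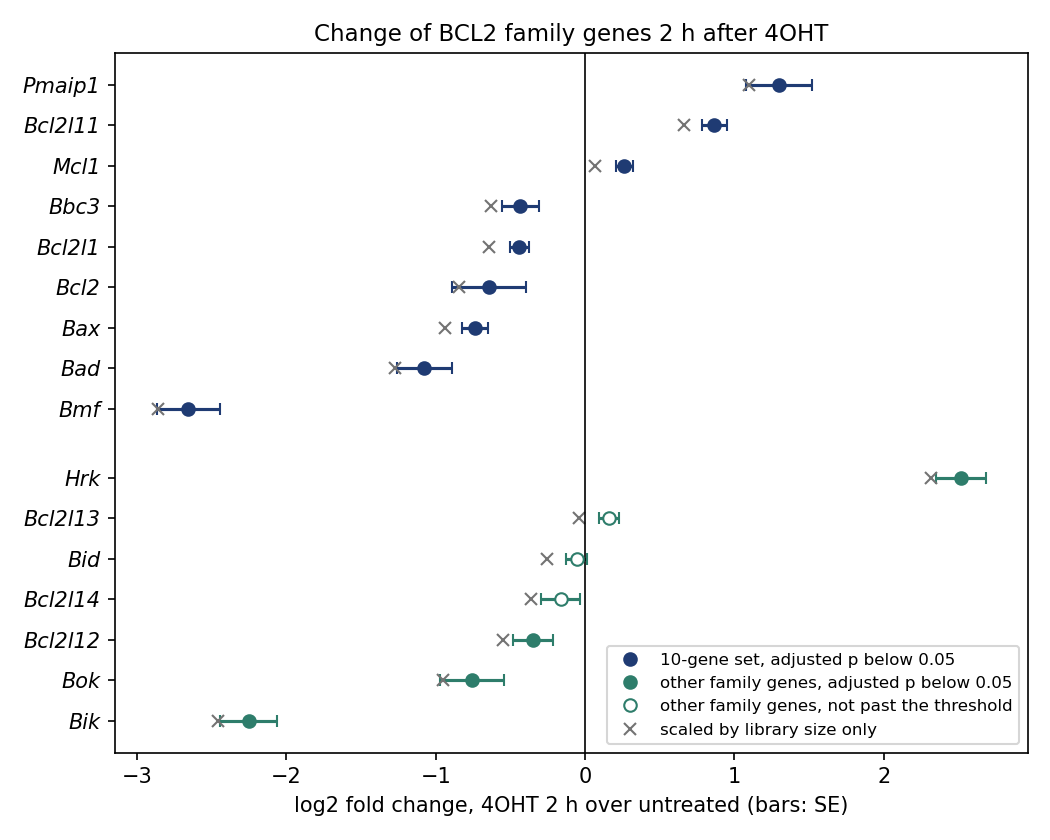
Log2 fold change, 4OHT 2 h over untreated, of the 9 tested genes (dark blue) and of 7 further family genes (green), with SE bars from edgeR. Crosses show the value scaled by library size only, which lies 0.20 lower. Of the dark blue genes Mcl1 comes nearest to 0, and Hrk and Bik are the extremes among the green ones.

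Bak1, which encodes BAK, the other effector, was listed at 0 in all 6 libraries, and this 0 says nothing on its transcription. Its whole span (chromosome 17, 27019810 to 27029009, minus strand) lies inside Ggnbp1 on the plus strand. Of 879 protein-coding genes that lie wholly inside another listed gene, 874 (99.4%) were at 0 in every library, against 2380 of 16161 (14.7%) with no such overlap. The share was 99.5% (367 of 369) for genes on the opposite strand that shared no exon with the gene around them. Such zeros are what counting over whole gene spans, without strand and without reads shared by 2 spans, would give; the setting used is not stated. Ggnbp1 had 225, 190 and 164 counts after 4OHT, against 320, 309 and 233 untreated (log2 fold change 0.02 ± 0.10, edgeR adjusted p = 0.84). Under the same counting, reads in the shared parts of Bax and Bad would be missing from their counts.

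**Figure D3:**
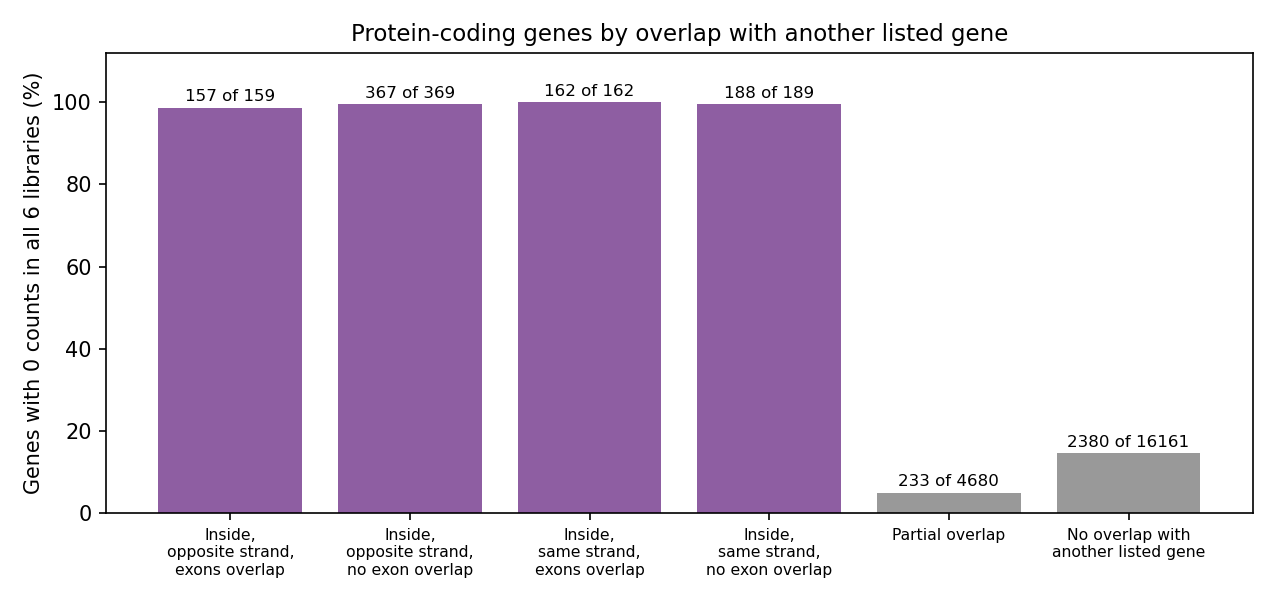
Share of protein-coding genes with 0 counts in all 6 libraries (y axis, percent) by how the gene overlaps another gene of the table, with the number of genes above each bar. The 4 classes of genes wholly inside another gene lie at 98.7% or more, and Bak1 belongs to the first.

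Taking counts as made over spans, levels of different genes can be set side by side as CPM per kb of span. After 4OHT the order was Mcl1 (81.6 ± 1.02), Bax (10.1 ± 0.97), Bcl2l11 (4.85 ± 0.50), Bbc3 (2.92 ± 0.18), Bcl2l1 (1.30 ± 0.02), Pmaip1 (1.14 ± 0.15), Bad (0.70 ± 0.17), Bmf (0.20 ± 0.01) and Bcl2 (0.012 ± 0.004 CPM per kb, SD, n = 3). In untreated cells it was Mcl1 (68.0 ± 1.09), Bax (16.9 ± 1.21), Bbc3 (3.95 ± 0.69), Bcl2l11 (2.66 ± 0.18), Bcl2l1 (1.76 ± 0.07), Bad (1.46 ± 0.22), Bmf (1.24 ± 0.30), Pmaip1 (0.47 ± 0.13) and Bcl2 (0.019 ± 0.0002 CPM per kb, SD, n = 3). Mcl1 was the most densely transcribed gene of the set in both groups and Bcl2 the least. Between neighbours in these orders the libraries overlapped for 1 pair, Bad and Bmf in untreated cells. Bcl2l11 stood above Bbc3 after 4OHT and below it in untreated cells, and Pmaip1 stood above Bad and Bmf after 4OHT and below both in untreated cells. Per kb of merged exons the order partly differed: Bcl2l1 stood above Bbc3 after 4OHT (14.5 against 13.5 CPM per kb) and in untreated cells (19.6 against 18.3), and in untreated cells also above Bcl2l11 (12.1). Spans and exons come from GENCODE M21.

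Ratios of counts of 2 genes within a library do not depend on how libraries are scaled. The Mcl1 to Bcl2l1 ratio was 5.53, 5.39 and 5.30 after 4OHT in clones a, b and c, against 3.47, 3.32 and 3.16 untreated. Hence the survival genes shifted toward Mcl1 whatever the scaling. The Bcl2l11 to Bcl2l1 ratio was 2.95, 2.72 and 2.35 after 4OHT, against 1.15, 1.14 and 0.953 untreated. The Bcl2l11 to Mcl1 ratio was 0.533, 0.505 and 0.444 after 4OHT, against 0.332, 0.342 and 0.302 untreated, so that BIM transcripts gained on both survival genes in each clone. Of the ratios given here, that of Bcl2l11 to Bmf, both BH3-only genes, moved furthest, with 44.2, 46.1 and 38.3 after 4OHT, against 3.58, 3.26 and 4.73 untreated. The Bcl2l11 to Bbc3 ratio was 6.89, 6.64 and 5.10 after 4OHT, against 3.06, 2.72 and 1.93 untreated. The effector went the other way: Bax to Bcl2l1 was 0.875, 0.703 and 0.809 after 4OHT, against 0.977, 0.938 and 1.01 untreated. These ratios were picked with the fold changes known and are given as a description.

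**Figure D4:**
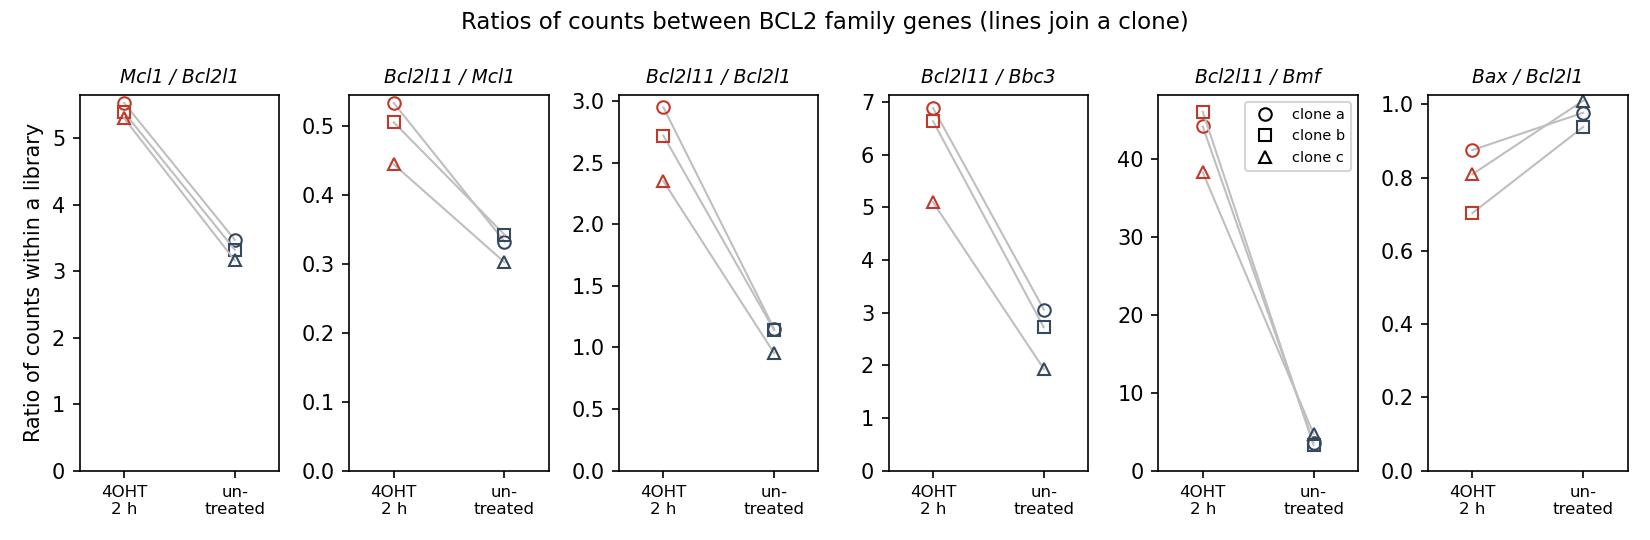
Ratios of counts between pairs of BCL2 family genes in each library (y axes start at 0, no unit), after 2 h of 4OHT (left, red) and untreated (right, dark blue), with lines joining the libraries of a clone. The first 5 ratios are higher after 4OHT in all 3 clones, and Bax to Bcl2l1 is lower in all 3.

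The clones differed in 2 of the 9 genes, Bcl2l11 (adjusted p = 0.0178) and Bmf (adjusted p = 0.0250), in an edgeR quasi-likelihood test for clone with treatment in the model. Such a difference was found for 12.6% of all genes. For Bcl2l11, clone c was lowest in both groups; for Bmf it was lowest in the untreated group only. Bbc3 missed the threshold (adjusted p = 0.0530), with clone c highest in both groups, and passed it with DESeq2 size factors (0.0482) and without the filter on low counts (0.0378). With 1 library per clone and treatment, a different response of the clones could not be tested.

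Of 14 further family genes, 7 were tested: 1 rose, 3 fell and 3 did not pass (57.1% passed, the same share as over all genes). Hrk, the gene for the BH3-only protein Harakiri, had 327, 281 and 206 counts after 4OHT, against 79, 93 and 43 untreated. That is 34.1 ± 3.67 CPM after 4OHT and 5.87 ± 1.48 CPM untreated (log2 fold change 2.52 ± 0.17, edgeR adjusted p = 1.06e-06), a larger value than that of any of the 9 tested genes above. Bik, another BH3-only gene, fell to 3.98 ± 1.05 CPM after 4OHT, against 19.2 ± 2.67 CPM untreated (log2 fold change -2.25 ± 0.19, edgeR adjusted p = 5.47e-06). Bok, a relative of BAX and BAK, fell by 0.76 ± 0.21 and Bcl2l12, of which Irf3 shares 14.2%, by 0.35 ± 0.13 on the log2 scale. Bcl2l13 (0.16), Bcl2l14 (-0.16) and Bid (-0.06) did not pass. Blocking on clone, Bcl2l13 passed (edgeR adjusted p = 0.00958), and by library size its sign turned (-0.04), while Bcl2l14 and Bid passed as lower (adjusted p = 0.0328 and 0.0158). Bcl2l10 and Bcl2l15 were too low to test, with at most 8 counts in a library. Bcl2l2 and Bcl2a1b were at 0, with 98.7% and 98.0% of their spans inside another listed gene, and Bcl2a1a, Bcl2a1c and Bcl2a1d, near-identical copies that may share reads, were at 0 as well.

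Downstream, the genes of the apoptosome, the caspases and their inhibitors were called about as often as genes at large. Of 17 tested, 4 rose, 5 fell and 8 did not pass (52.9% called, against 57.1% of all genes), with a median log2 fold change of -0.07, and by library size 2 rose and 7 fell with a median of -0.27. Casp9, the initiator caspase of the mitochondrial route, averaged 41.5 ± 2.90 CPM after 4OHT and 25.8 ± 0.50 CPM untreated (log2 fold change 0.68 ± 0.09, edgeR adjusted p = 7.84e-05). Apaf1, which assembles caspase 9, averaged 47.9 ± 1.18 CPM after 4OHT and 71.1 ± 4.86 CPM untreated (-0.57 ± 0.07, edgeR adjusted p = 0.000108). Birc3, the gene for an inhibitor of apoptosis protein, fell by 1.04 ± 0.11 on the log2 scale. Thus the 2 partners of the apoptosome, Apaf1 and Casp9, moved in opposite directions.

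In the death receptor pathway 1 of 7 tested genes rose, the TNF receptor gene Tnfrsf1a (0.67 ± 0.18, edgeR adjusted p = 0.00973), and 0 fell (0 also at an unadjusted p below 0.05), so that 14.3% were called, against 57.1% of all genes. By library size 1 rose and 2 fell, Fadd (-0.41) and Tradd (-0.46), and the median of 0.10 turned to -0.10. Their main log2 fold changes were -0.21 and -0.26. Ripk1 (0.25), which codes for a kinase at the receptor, passed once clone entered the model, in which 2 genes of the list rose (edgeR adjusted p = 0.0301; 0.0917 in the model of treatment alone). Fas was too low to test.

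Among 21 tested partners and modifiers of BCL2 family proteins, 10 rose and 8 fell (85.7%, against 57.1% of all genes), with a median log2 fold change of 0.26, or 0.06 by library size. Rps6ka3, which encodes the ERK-activated kinase RSK2, rose by 1.42 ± 0.08, and Ywhaz, a 14-3-3 gene, by 0.92 ± 0.06. The PIM kinases, which like RSK can phosphorylate BAD, differed among themselves. Pim1 averaged 203 ± 31.8 CPM after 4OHT and 95.6 ± 5.18 CPM untreated (1.09 ± 0.10), whereas Pim3 averaged 53.4 ± 5.18 CPM after 4OHT and 124 ± 14.6 CPM untreated (-1.22 ± 0.10). Fbxw7, an adaptor in the turnover of MCL1, lies wholly within the span of other listed genes and was at 0.

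Of 13 transcription factor genes known to act on this family, 8 rose, 3 fell and 2 did not pass. The share called was 84.6%, against 57.1% of all genes, and the median log2 fold change was 0.58, or 0.38 by library size. Jun, the AP-1 subunit linked to Bcl2l11 in neurons, averaged 260 ± 28.8 CPM after 4OHT and 20.2 ± 3.97 CPM untreated (3.69 ± 0.13, edgeR adjusted p = 2.15e-08). Foxo1 rose by 1.36 ± 0.07, Ddit3 (CHOP) by 2.40 ± 0.13 and Nfkb1 by 1.33 ± 0.09. Those that fell were Foxo3 (-0.64 ± 0.07), Trp53 and Trp73 (-2.53 ± 0.20). These lists were written with results of the same libraries known, so their counts are a description.

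Profiles most like those of the 2 extreme genes were sought by the distance between log2 CPM centred over the 6 libraries, among 11325 genes. Nearest to Pmaip1 were Mgll (distance 0.302), Nr4a1 (0.315) and Lgals1 (0.345), against a median of 1.66. They rose by 1.28, 1.19 and 1.34 on the log2 scale. Nearest to Bmf were Fxyd6 (0.373), Foxi3 (0.399) and Stard8 (0.404), against a median of 3.25, with log2 fold changes of -2.74, -2.76 and -2.57. Likeness over 6 libraries in 2 groups reflects mainly the size of the change.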

How the data were processed

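The deposited values are raw read counts per gene symbol in 6 EU-seq libraries, with no normalization by the authors. STAR, featureCounts and mm10 are named, without versions or settings, per the submitters' processing notes. Columns were tied to samples by clone letter and time. Symbols were placed with GENCODE M21 (GRCm38), where all 10 genes matched once.

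Genes were kept by filterByExpr (minimum count 10, total 15), which left 13869, scaled by TMM, and tested across all genes with edgeR 4.0.16 (glmQLFit and glmQLFTest, R 4.3.3) on 3 treated against 3 untreated libraries, adjusted by Benjamini-Hochberg over all genes. The code was tested on simulated data. SE is the log2 fold change divided by the square root of F. No source says that the clones were cultured separately, and each p-value then reflects only how these libraries vary, which may be technical. Libraries of 1 group were not copies of each other. Chi-square per gene between clones a and b was 2.29 after 4OHT and 2.44 untreated. For pairs with clone c it was higher, from 5.38 to 11.3.

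The labels name the same clones in both groups, and the 2 libraries of a clone deviated together from their groups (r = 0.282 for clone a, 0.165 for b, 0.357 for c), so a replicate block was an alternative, with DESeq2 1.42.0, limma-voom (limma 3.58.1), other scalings and filters, adjusted p below 0.01, and libraries or clones left out. The 10 genes and the lists were chosen with earlier results of these data known. From each list up to 4 genes with the smallest adjusted p are named, except 1 that is not reported here; Bcl2l13, Bcl2l14, Bid, Trp53, Foxo3, Trp73, Fas, the stem cell and fibroblast markers, Fbxw7 and genes at 0 were named after their values were seen.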

Additional observations from a re-analysis of the deposited data

How the results depend on the processing

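Directions of the 9 tested genes were kept under each of 16 alternatives, and 6 of them (Pmaip1, Bcl2l11, Bcl2l1, Bax, Bad and Bmf) also passed the threshold each time. Mcl1 was not called by library size (log2 fold change 0.065), and its values with libraries or clones left out were 0.24 to 0.28, with the call lost only without clone b. Bcl2 was not called without the filter on low counts (-0.65), with DESeq2 (-0.64), or in 7 of the 9 fits with libraries or clones left out, which gave -0.87 to -0.41. Bbc3 gave -0.54 to -0.31 in these fits and lost the call in 2. Their causes were not tested, though fits on fewer libraries have less to estimate the spread from. With clone as a replicate block all 9 calls held, with -0.65 for Bcl2 (adjusted p = 0.0330) and 0.26 for Mcl1 (adjusted p = 1.25e-05). At an adjusted p below 0.01, 3 of these genes rose and 4 fell, while 3058 and 2964 of all 13869 genes tested did so. By library size 29.7% of all calls were higher, against 49.9%. Depth limits Bcl2, with 50 counts over the treated and 119 over the untreated libraries.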
